A study of Homo sapiens with 27 samples.

Results

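The transcription factors that govern photoreceptor fate, namely OTX2, CRX, NRL, NR2E3, RXRG, THRB, NEUROD1, and PRDM1, were followed through differentiation of the human embryonic stem cell line H1 on laminin. The 8 genes were chosen with earlier results of these data known. They were taken by symbol, and all 8 were present among the 44852 genes of the count table. Cultures were sampled at days 2, 22, and 32 on coatings labelled LN523, LN323, or LN521, giving 9 groups of 3 libraries. The days are those of the time labels and the count columns, and the sample titles give other day numbers throughout. All groups shared the H1 line at passages 10 to 25. The day 22 and day 32 cultures had received, on every coating, neural induction with the inhibitors CKI-7 and SB431542, and later a photoreceptor medium holding BDNF, CNTF, retinoic acid, and DAPT, an inhibitor of γ-secretase and thereby of Notch signalling. Day 2 samples preceded induction and are labelled as undifferentiated cells. The series describes LN523 and LN521 coatings as each combined with LN323, whereas the published methods combine both LN523 and LN323 with LN521. The groups are therefore called here by the laminin in their label. Nothing in the labels states that the 3 replicates of a group came from separate cultures, and p-values measure the spread between these libraries, which may be technical.

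In the retina, photoreceptor fate is set in cells leaving the cell cycle. OTX2 is required for the choice of photoreceptor over other fates and acts above CRX, which switches on photoreceptor genes. PRDM1 holds OTX2-expressing cells to the photoreceptor rather than the bipolar fate, and the bHLH factor NEUROD1 promotes photoreceptor differentiation and survival. NRL drives the rod fate and activates NR2E3, which represses cone genes in rods. THRB encodes a thyroid hormone receptor whose retinal isoform specifies cones, and RXRG encodes a retinoid X receptor expressed in cones. OTX2 is not particular to photoreceptors, being expressed also in pluripotent cells, retinal pigment epithelium (RPE), and bipolar cells.

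The sequences below are shown because CRX and OTX2 recognize the same core motif, TAATCC, and CRX was the single member with that motif upstream of its start. They are the 250 bases before the RefSeq start in GRCh38.p14, written 5′ to 3′ on the gene's strand, with the motif on either strand in capitals. The CRX window is chr19:47821687-47821936 on the plus strand and touches an annotated exon of a CRX transcript. The OTX2 window is chr14:56810480-56810729 on the minus strand and lies inside a longer OTX2 transcript but outside its exons.
CRX: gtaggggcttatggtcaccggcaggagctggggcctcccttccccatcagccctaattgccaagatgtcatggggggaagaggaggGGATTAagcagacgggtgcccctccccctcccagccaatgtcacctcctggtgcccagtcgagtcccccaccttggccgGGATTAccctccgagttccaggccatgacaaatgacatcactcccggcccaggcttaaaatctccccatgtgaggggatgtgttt
OTX2: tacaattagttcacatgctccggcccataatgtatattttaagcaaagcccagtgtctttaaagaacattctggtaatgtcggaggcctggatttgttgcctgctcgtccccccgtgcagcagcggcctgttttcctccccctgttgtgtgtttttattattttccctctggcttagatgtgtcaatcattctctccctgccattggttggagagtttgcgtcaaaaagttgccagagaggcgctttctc

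CRX carried the motif on its reverse strand, read as GGATTA in the sequence shown, at positions -164 and -85, counted from the start. Across 12 start entries of the 8 genes, each read from 250 bases before to 50 bases after the start, THRB held the other TAATCC match, at position 35 of its second start, and 6 genes held none. Among 35116 such promoters, 6.4% held TAATCC on either strand. The core TGCTGA of the NRL response element was present in 17.3% of promoters and, among the 8 genes, in OTX2 and PRDM1. The E-box CAGATG of NEUROD1 was present in 14.7% of promoters and, among the 8 genes, in NRL and THRB. A match is a stretch of letters and not a measured binding site.

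Total counts were 25620624 to 47340990 per library, with a median of 39862487. Summed pluripotency markers were at 8490 to 13700 CPM (counts scaled to a common library total) at day 2 and at 41.6 to 612 CPM at days 22 and 32. The eye field gene PAX6 averaged 1.38 to 1.74 CPM at day 2 and 614 to 717 CPM at the later days. No library went against its day. The replicate number equals the sequencing lane and entered every fit as a block. CPM values below are scaled by TMM normalization and are comparable between libraries for one gene.

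At the onset of differentiation, CRX, RXRG, NEUROD1, and PRDM1 were almost silent, whereas OTX2 and THRB were already expressed. By day 22, OTX2 had fallen on all 3 matrices and CRX, RXRG, NEUROD1, and PRDM1 had risen on all 3 (edgeR quasi-likelihood test, Benjamini-Hochberg adjusted p under 0.05 over all genes). From day 22 to day 32, NEUROD1, PRDM1, and THRB rose on LN523 and LN521. The rod factors NRL and NR2E3 passed no test for a rise at any step.

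**Figure D1:**
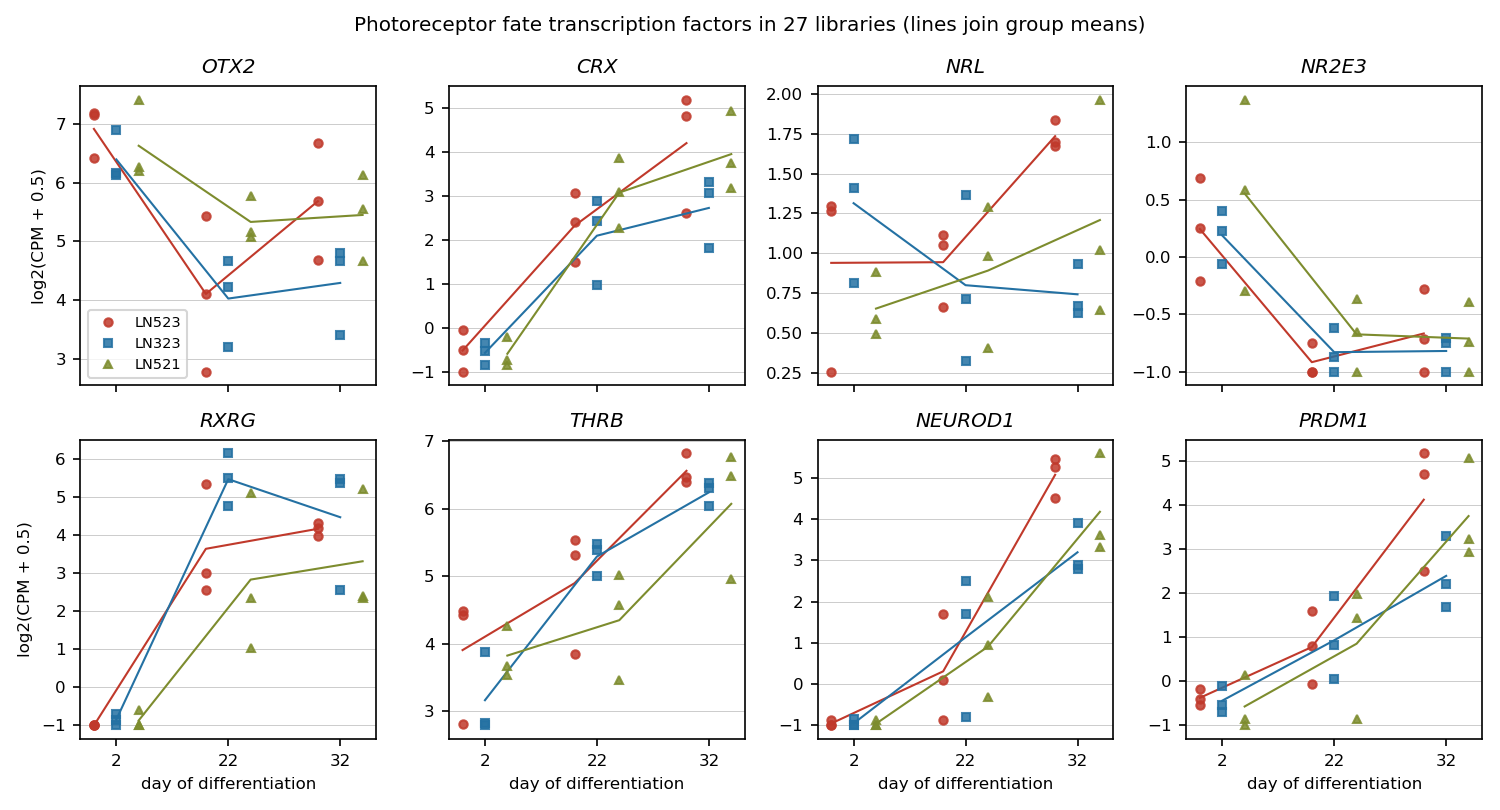
Level of each transcription factor as log2(CPM + 0.5) against day of differentiation, with a point for each of the 27 libraries, colored by matrix, and lines joining group means; the 3 matrices are drawn side by side at each day. OTX2 is highest at day 2, NEUROD1 and PRDM1 are highest at day 32, and NR2E3 stays near the detection limit after day 2.

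OTX2 was expressed at day 2 at 145, 84.8, and 141 CPM on LN523 in lanes 1, 2, and 3, at 71.1, 119, and 69.2 CPM on LN323, and at 73.2, 76.3, and 170 CPM on LN521. At day 22, it was at 42.6, 6.35, and 16.6 CPM on LN523, at 24.7, 8.70, and 18.0 CPM on LN323, and at 54.1, 33.0, and 35.1 CPM on LN521. Every day 22 library lay below every day 2 library of its matrix. The log2 fold change was -2.67 ± 0.40 (SE) on LN523 with an adjusted p of 3.3e-07, -2.47 ± 0.39 on LN323, and -1.52 ± 0.38 on LN521. Without replicate 3 of LN521 at day 2, the library with the highest OTX2 level of all 27, the change on LN521 was -0.78 with an adjusted p of 0.241. Pluripotency markers fell over the same interval. Their part in the fall of OTX2 was not tested, and in these bulk samples fewer cells of a type and less RNA per cell cannot be told apart.

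CRX was at 0 to 0.463 CPM in the 9 day 2 libraries. At day 22, it reached 7.82, 2.33, and 4.80 CPM on LN523, 6.93, 1.46, and 4.87 CPM on LN323, and 14.0, 4.36, and 8.02 CPM on LN521. Lane 2 gave the lowest level on each matrix, and no day 22 library overlapped with day 2. The log2 fold changes were 4.44 ± 0.69 on LN523, 4.61 ± 0.69 on LN323, and 5.43 ± 0.70 on LN521. They passed the test under every alternative.

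RXRG had no count in the 3 LN523 libraries at day 2 and 6 counts in all on each of the other matrices. At day 22, it was at 5.46, 7.56, and 40.4 CPM on LN523, at 44.7, 27.0, and 71.0 CPM on LN323, and at 1.54, 4.64, and 34.3 CPM on LN521. Lane 3 was thus the highest on every matrix. Against a floor of 3 counts over the group, the level on LN523 was at least 528-fold higher at day 22. The fitted log2 fold change was 9.93 ± 0.80 on LN323 and 7.65 ± 0.78 on LN521.

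NEUROD1 had 2 counts in all at day 2 on each matrix. Its day 22 levels were 0.0463, 2.76, and 0.572 CPM on LN523, 0.0761, 5.17, and 2.74 CPM on LN323, and 3.79, 1.42, and 0.302 CPM on LN521. The ratio of day 22 to day 2, with a binomial 95% interval for counting error only, was 55.6 (15.1 to 463) on LN523, 170 (46.7 to 1410) on LN323, and 113 (31.1 to 942) on LN521. The interval pools the libraries of a group and takes each count as independent. It is too narrow if both mates of a read pair were counted. Lane 1 of LN523 at day 22 overlapped with day 2. PRDM1 was at 0 to 0.603 CPM at day 2 and at 0.0549 to 3.46 CPM at day 22. Its log2 fold change was 1.95 ± 0.73 on LN523 with an adjusted p of 0.046, 2.92 ± 0.72 on LN323, and 3.03 ± 0.71 on LN521. The LN523 call was lost with DESeq2 (adjusted p = 0.098), with another normalization (RLE, adjusted p = 0.058), with the stricter count filter of filterByExpr (adjusted p = 0.107), and without replicate 1 (log2 1.66) or 2 (log2 1.27) of day 2 or replicate 2 of day 22 (log2 1.92).

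THRB was at 6.38 to 21.8 CPM at day 2. It rose by day 22 on LN323, to 31.6, 41.6, and 44.0 CPM, with a log2 fold change of 2.10 ± 0.39 and an adjusted p of 2.2e-05. The change was 0.97 ± 0.38 on LN523 and 0.60 ± 0.37 on LN521, and neither passed the test. THRB counts pool all its isoforms, so the cone isoform was not measured apart. NRL stayed at 0.695 to 2.79 CPM at day 2 and 0.750 to 2.07 CPM at day 22. NR2E3 was at 0.316 to 2.09 CPM at day 2 and at 0 to 0.275 CPM at day 22, with 4, 6, and 16 counts in all on LN523, LN323, and LN521. Its day 22 libraries lay below all day 2 libraries on each matrix. The log2 fold change was -4.40 ± 1.33 on LN523 (adjusted p = 0.010), -3.31 ± 1.27 on LN323 (adjusted p = 0.054), and -2.91 ± 1.21 on LN521 (adjusted p = 0.092). The LN523 call was lost without replicate 1 (adjusted p = 0.075) or 3 (adjusted p = 0.078) of day 22.

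Thus 4 of the 8 factors rose on LN523 between days 2 and 22, where 11.5% of all tested genes rose, and 2 fell, where 10.2% fell. On LN323, 5 rose against 11.8% of all genes and 1 fell against 10.9%. On LN521, 4 rose against 10.8% of all genes and 1 fell against 8.09%.

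From day 22 to day 32, few genes changed in these cultures, and NEUROD1 and PRDM1 had the widest changes among the 8 factors. At day 32, NEUROD1 was at 42.9, 38.0, and 22.1 CPM on LN523, at 6.38, 14.6, and 6.87 CPM on LN323, and at 47.6, 9.42, and 11.8 CPM on LN521. Every day 32 library exceeded every day 22 library of its matrix. The log2 fold change was 5.13 ± 0.80 on LN523 with an adjusted p of 1.4e-04, 3.78 ± 0.73 on LN521 with an adjusted p of 0.0059, and 1.74 ± 0.68 on LN323 with an adjusted p of 1. The LN523 call held with each library left out. The LN521 call was lost with DESeq2 (adjusted p = 0.085), without replicate 2 of day 22 (log2 3.44), and without replicate 1 of day 32, the library with the highest NEUROD1 level of all 27 (log2 2.49, adjusted p = 0.343). With the libraries of LN323 fitted alone, the change there was 2.43 with an adjusted p of 7.0e-04.

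PRDM1 at day 32 was at 35.7, 25.5, and 5.16 CPM on LN523, at 4.14, 9.28, and 2.71 CPM on LN323, and at 33.3, 8.92, and 7.21 CPM on LN521. Lane 3 was the lowest on all 3 matrices. Its log2 fold change was 3.99 ± 0.67 on LN523 with an adjusted p of 5.0e-04, 3.58 ± 0.66 on LN521 with an adjusted p of 0.0029, and 1.54 ± 0.62 on LN323 with an adjusted p of 1. On LN523 and LN521, but not LN323, all day 32 libraries exceeded all day 22 libraries. The LN523 call held with each library left out, whereas the LN521 call was lost without replicate 1 of day 32 (log2 2.73, adjusted p = 0.120) and without the lane block (log2 3.11, adjusted p = 0.090).

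THRB at day 32 was at 113, 83.7, and 88.2 CPM on LN523, at 83.0, 65.2, and 78.8 CPM on LN323, and at 109, 30.5, and 89.6 CPM on LN521. It was higher than at day 22 in every lane of every matrix. The log2 fold change was 1.56 ± 0.38 on LN523 with an adjusted p of 0.041, 1.85 ± 0.39 on LN521 with an adjusted p of 0.011, and 0.97 ± 0.37 on LN323 with an adjusted p of 1. The LN523 call was lost with DESeq2 (adjusted p = 0.141), with RLE normalization (adjusted p = 0.066), without the lane block (adjusted p = 0.059), and without replicate 1 (log2 1.15) or 3 (log2 1.66) of day 22 or replicate 1 of day 32 (log2 1.33). On LN521, it was lost without replicate 1 (log2 1.46) or 2 (log2 1.91) of day 22 or replicate 1 (log2 1.37) or 3 (log2 1.76) of day 32. With the libraries of LN323 fitted alone, its change there passed the test (log2 0.99, adjusted p = 0.0082).

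OTX2 at day 32 was at 102, 51.0, and 25.2 CPM on LN523, at 27.5, 24.7, and 10.1 CPM on LN323, and at 69.8, 46.2, and 24.9 CPM on LN521. Its change from day 22 was 1.50 ± 0.38 on LN523 with an adjusted p of 0.063, 0.31 ± 0.38 on LN323, and 0.17 ± 0.37 on LN521. CRX at day 32 was at 27.6, 36.0, and 5.57 CPM on LN523, at 7.83, 9.47, and 2.99 CPM on LN323, and at 30.1, 13.0, and 8.50 CPM on LN521. Its change was 2.21 ± 0.58 on LN523 with an adjusted p of 0.082, 0.63 ± 0.56 on LN323, and 0.89 ± 0.55 on LN521. Lane 3 held the lowest level of both genes on every matrix. With the libraries of LN523 fitted alone, both passed the test (OTX2 log2 1.63, adjusted p = 8.1e-05; CRX log2 2.30, adjusted p = 0.00495). They also passed without replicate 3 of LN523 at day 32 (OTX2 log2 1.84, CRX log2 2.74), and OTX2 without replicate 1 of day 22 (log2 2.13).

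RXRG passed no test between days 22 and 32. At day 32, it was at 17.8, 15.4, and 19.7 CPM on LN523, at 44.5, 5.41, and 41.1 CPM on LN323, and at 4.76, 4.58, and 36.8 CPM on LN521. The changes from day 22 were 0.70 ± 0.49, -0.68 ± 0.49, and 0.28 ± 0.49. NRL at day 32 was at 3.07, 2.69, and 2.74 CPM on LN523, at 1.09, 1.41, and 1.04 CPM on LN323, and at 3.40, 1.53, and 1.06 CPM on LN521. The 3 LN523 libraries were above all LN523 libraries of day 22, but the change of 1.01 ± 0.53 had an adjusted p of 1. The NRL difference was -0.12 ± 0.53 on LN323 and 0.47 ± 0.53 on LN521. NR2E3 had 18, 8, and 13 counts in all at day 32 on LN523, LN323, and LN521, and its changes of 2.21 ± 1.35, 0.09 ± 1.31, and -0.39 ± 1.22 were not detectable at this depth.

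In all, 3 of the 8 factors rose on LN523 between days 22 and 32, where 0.343% of all tested genes rose, and 3 rose on LN521, where 0.196% of all genes rose. Of the 44852 genes tested, 16423 reached a mean of 1 CPM in a group of the LN523 comparison, so the share includes many genes near 0. These counts and shares are a description of factors chosen with earlier results known. With filterByExpr, none of these 6 calls passed, at adjusted p of 0.101 to 0.444, where it called 0 of 25682 genes on LN523 and 5 on LN521. The log2 fold changes on LN523 were then 5.13 for NEUROD1, 3.99 for PRDM1, and 1.56 for THRB. With each matrix fitted alone, 5 of 8 were called on LN523 (1% of all genes) and 2 of 8 on LN323 (0.712% of all genes). On LN323, 0 of 8 were called by edgeR and by DESeq2, with 3 at an unadjusted p under 0.05 (THRB, NEUROD1, and PRDM1). Of all genes, 2.85% had an unadjusted p under 0.05 there, and 0.0357% were called higher. The difference of this change between matrices was tested directly on the 18 libraries of days 22 and 32. For LN523 against LN323, it was 3.36 ± 1.06 for NEUROD1 (unadjusted p = 0.0032 in the edgeR fit over all genes, adjusted p = 1) and 2.42 ± 0.81 for PRDM1 (unadjusted p = 0.0053, adjusted p = 1). No factor was called in any of the 3 such tests by edgeR or DESeq2, with 4, 1, and 1 factors at an unadjusted p under 0.05 for LN523 against LN323, LN523 against LN521, and LN323 against LN521. Of all genes, 1.39%, 4.28%, and 2.94% had an unadjusted p under 0.05, and 0%, 0.00236%, and 0% were called.

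**Figure D2:**
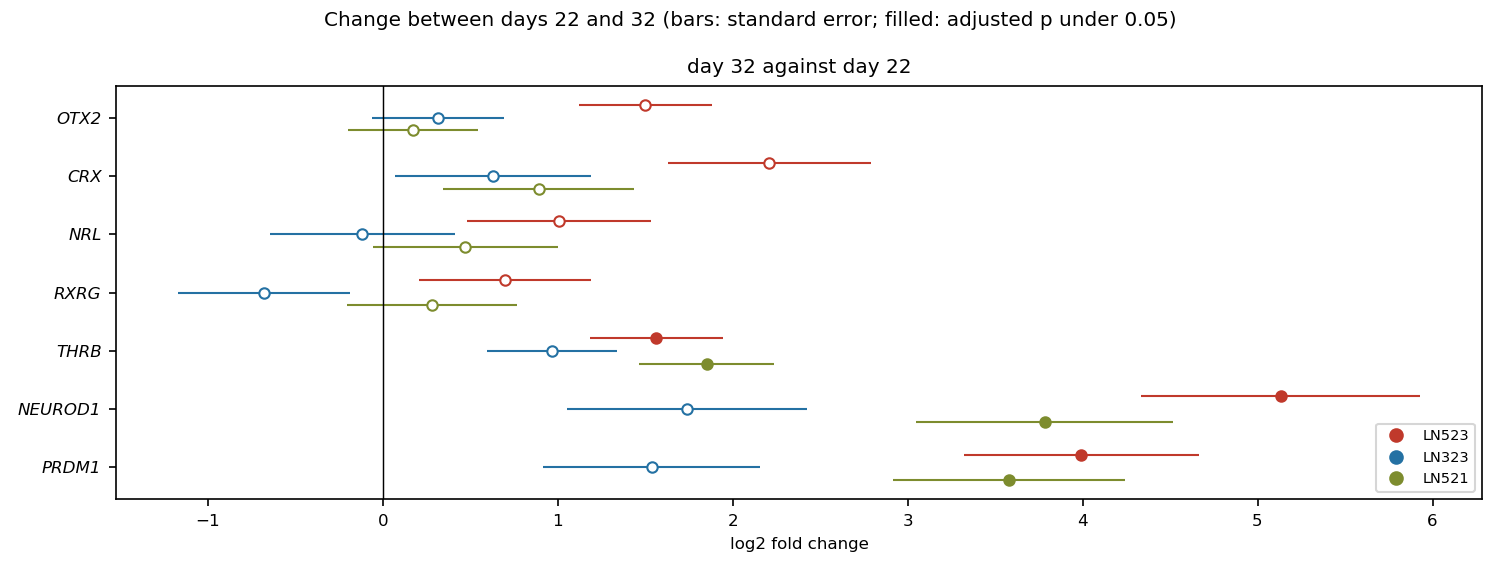
Log2 fold change of day 32 against day 22 (horizontal axis) for 7 of the factors on each matrix, with standard error bars; filled points have an adjusted p under 0.05. NR2E3 is left out because it had at most 18 counts per group. Filled points are NEUROD1, PRDM1, and THRB on LN523 and LN521.

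Levels per transcript length, as the deposited TPM values, allow the factors to be ranked at day 32. On LN523, the order was OTX2 at 71.6 ± 46.8 TPM (SD, n = 3), THRB at 43.1 ± 6.99, NEUROD1 at 41.0 ± 12.9, RXRG at 25.9 ± 3.26, CRX at 15.2 ± 10.4, PRDM1 at 13.7 ± 9.63, NRL at 3.60 ± 0.256, and NR2E3 at 0.176 ± 0.201 TPM. The ranges of the neighbours in this order overlapped, except that NRL and NR2E3 were separate. On LN323, RXRG was the highest at 46.0 ± 32.9 TPM, ahead of THRB at 35.7 ± 4.30 and OTX2 at 26.3 ± 12.3, again with overlapping ranges. On LN521, OTX2 was first at 59.8 ± 31.4 TPM, THRB second at 36.1 ± 20.1, and NEUROD1 next at 29.2 ± 28.5, and their ranges overlapped too.

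**Figure D3:**
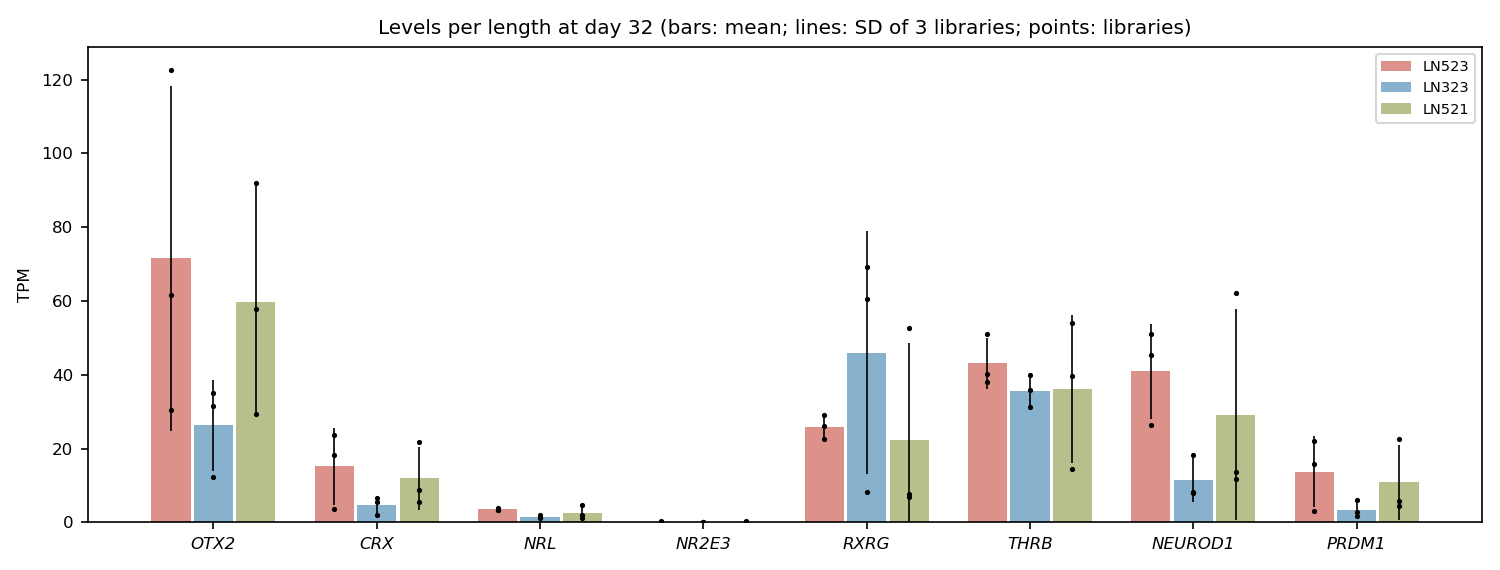
TPM (vertical axis, from 0) of the 8 factors at day 32 on LN523, LN323, and LN521; bars are means, lines the SD of 3 libraries, and points the libraries. OTX2, RXRG, THRB, and NEUROD1 are the highest and NRL and NR2E3 the lowest on each matrix.

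The matrices were then compared within each day, which asks whether the coating altered the level of a factor. At day 2, edgeR and DESeq2 called 0 of 8 factors in each of the 3 comparisons. At an unadjusted p under 0.05, there were 2 factors for LN523 against LN323 (OTX2 and THRB), 0 for LN523 against LN521, and 1 for LN323 against LN521 (THRB). Of all genes, 2.38%, 8.07%, and 11.4% had an unadjusted p under 0.05 in these comparisons, and 0.233%, 0.624%, and 2.5% were called.

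At day 22, RXRG was highest on LN323, THRB was higher on LN323 than on LN521, and OTX2 was highest on LN521. RXRG was lower on LN523 than on LN323 in all 3 lanes, by 2.07 ± 0.28 on the log2 scale (adjusted p = 1.4e-06), and was the 1 factor called of 8 where 0.013% of all genes were called. It was higher on LN323 than on LN521 in all 3 lanes, with a log2 fold change of 2.78 ± 0.29 (adjusted p = 3.9e-11). THRB was also higher on LN323 than on LN521 in all 3 lanes, with a log2 fold change of 0.98 ± 0.21 (adjusted p = 0.0036). OTX2 was lower in all 3 lanes both on LN323, with a log2 fold change of -1.38 ± 0.23 (adjusted p = 4.0e-05), and on LN523, with -1.24 ± 0.23 (adjusted p = 7.1e-04), each against LN521. The LN323 and LN521 libraries did not overlap in OTX2, while the ranges overlapped in the other 4 called comparisons. These made 3 of 8 factors for LN323 against LN521 (0.616% of all genes) and 1 of 8 for LN523 against LN521 (0.572%).

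These day 22 calls depended on the lane block. Without it, none of the 5 calls passed, and RXRG was at -1.42 for LN523 against LN323 (adjusted p = 1) and 1.82 for LN323 against LN521 (adjusted p = 0.898). Over all 38609 genes, 0, 1, and 0 were then called for LN523 against LN323, LN523 against LN521, and LN323 against LN521. With filterByExpr, none of the 5 passed either, and 0 of 21535 genes were called in each comparison. DESeq2, which called 1.42%, 1.26%, and 1.62% of all genes for LN523 against LN323, LN523 against LN521, and LN323 against LN521, kept 4 of the 5 and lost RXRG on LN523 against LN323 (adjusted p = 0.237). It also called CRX for LN323 against LN521, which edgeR put at -1.09 ± 0.34 with an adjusted p of 0.162, lower in all 3 lanes. RXRG on LN523 against LN323 was lost without replicate 1 of LN323 (-1.16) and without replicate 2 of LN323 (-2.24) or replicate 3 of LN523 (-2.16). OTX2 on LN523 against LN521 was lost without replicate 2 (-0.83) or 3 (-1.22) of LN523 and with these 2 matrices fitted alone (adjusted p = 1). Without any 1 of the LN323 replicates, OTX2 (-1.56 to -1.26) and THRB (0.60 to 1.18) against LN521 were lost, whereas RXRG on LN323 against LN521 held with each library left out.

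**Figure D4:**
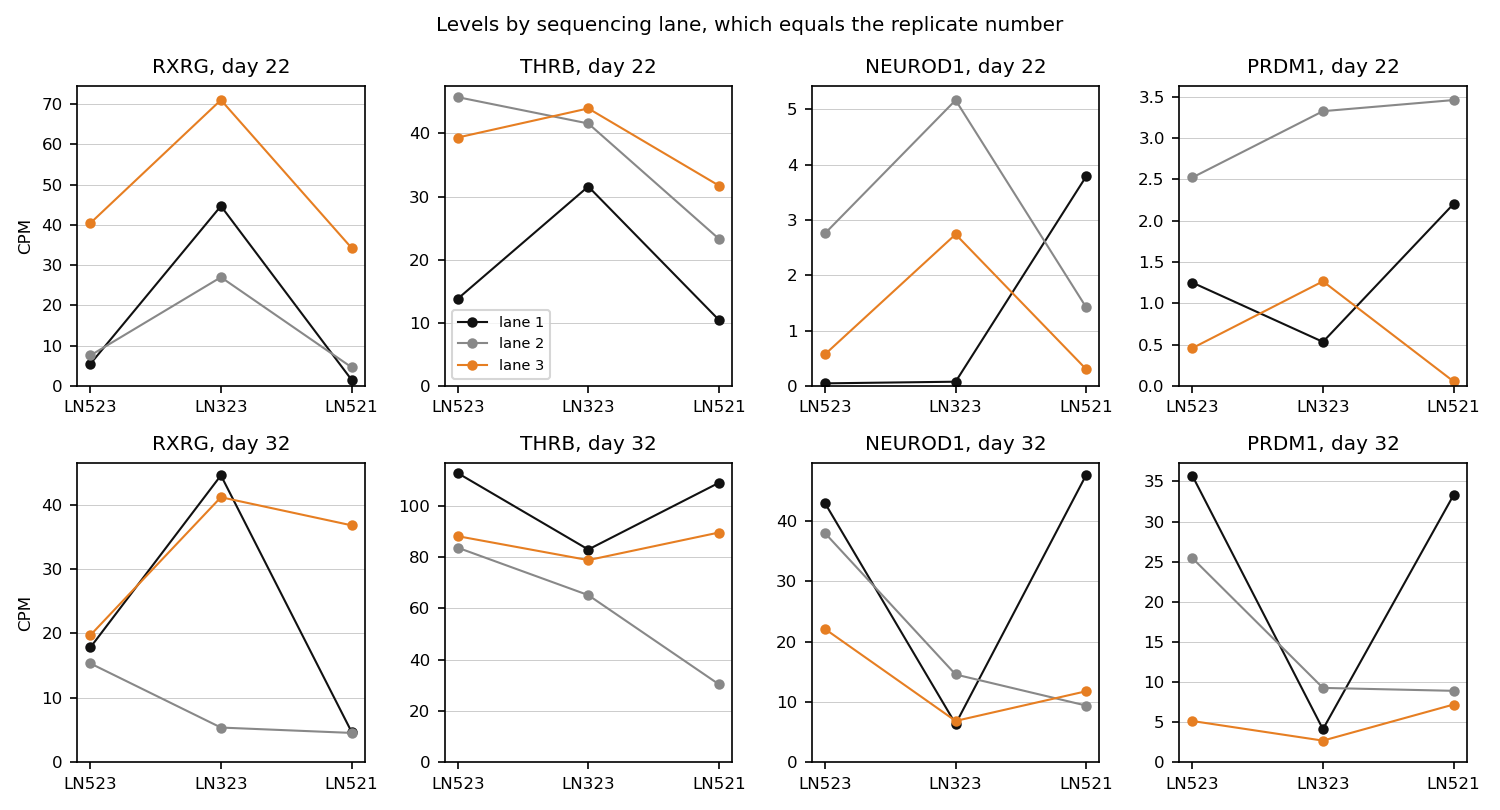
CPM (vertical axis, from 0) of RXRG, THRB, NEUROD1, and PRDM1 on LN523, LN323, and LN521 at day 22 (top) and day 32 (bottom); lines join the libraries of 1 sequencing lane. Lane 3 is the highest for RXRG on each matrix at day 22, and lane 1 is the highest for PRDM1 on LN523 and LN521 at day 32.

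Some markers of other cells also differed between matrices at day 22. Of 12 RPE markers, 4 were lower on LN523 and 2 on LN323 than on LN521, among them the melanin synthesis genes TYRP1 (log2 -1.63 and -1.32) and DCT (log2 -1.06 and -1.05). TYR was lower on LN523 (log2 -1.37), and TTR had no count there. The summed level of the 12 was 1910 to 2610 CPM on LN521, 1230 to 1580 CPM on LN523, and 1050 to 2160 CPM on LN323. Lane 1 held the highest OTX2 level on each matrix. It held the highest RPE sum on LN323, but not on LN523 or LN521. Of 8 pluripotency markers, 3 were lower on LN523 and 5 on LN323 than on LN521, and their sum was 163 to 612 CPM on LN521, 84.4 to 225 CPM on LN523, and 103 to 122 CPM on LN323, with none at 0 in a whole group. LIN28A was lower on LN523 and LN323 (log2 -1.31 and -1.61). Of all genes, 0.572% were called for LN523 against LN521 and 0.616% for LN323 against LN521. With filterByExpr, none of these marker calls passed, since 0 of 21535 genes were called. Without the lane block, 1 of 38609 genes was called for LN523 against LN521 and 0 for LN323 against LN521. The part of these markers in the OTX2 difference was not tested.

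At day 32, OTX2, CRX, NEUROD1, and PRDM1 had higher mean levels on LN523 than on LN323, each in all 3 lanes. The log2 differences were 1.40 ± 0.22 for OTX2 (adjusted p = 0.067), 1.58 ± 0.33 for CRX (adjusted p = 0.499), 1.78 ± 0.39 for NEUROD1, and 1.72 ± 0.40 for PRDM1 (adjusted p = 0.502 for both). NEUROD1 did not overlap between the groups, and the others did. Without replicate 1 of LN323, the OTX2 difference passed the test (log2 1.24, adjusted p = 0.030). Over all alternatives, the adjusted p of OTX2 ranged from 2.83e-22 to 1. By the edgeR fit of the 9 day 32 libraries, 0 of 8 factors and 0% of all genes were called, with 5 factors (these 4 and NRL) and 1.9% of all genes at an unadjusted p under 0.05. DESeq2 called those 4 factors (adjusted p = 2.8e-05, 0.0027, 0.011, and 0.015), where it called 2.09% of all genes. An edgeR fit of the 6 libraries of these matrices alone called 5, adding NRL, where it called 2.82% of all genes. The other day 32 differences for LN523 against LN323 were 1.24 ± 0.48 for NRL, -0.35 ± 0.48 for RXRG, and 0.31 ± 0.24 for THRB. NRL and THRB did not overlap between the groups either, but THRB had an unadjusted p of 0.21 in the edgeR fit. The share of all genes without overlap was not counted in any comparison, so a lack of overlap is a description only.

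For LN523 against LN521 at day 32, the log2 differences were 0.22 ± 0.22 for OTX2, 0.20 ± 0.33 for CRX, 0.59 ± 0.48 for NRL, 0.83 ± 0.48 for RXRG, 0.41 ± 0.24 for THRB, 0.71 ± 0.39 for NEUROD1, and 0.27 ± 0.39 for PRDM1. No factor was called by edgeR or DESeq2 or had an unadjusted p under 0.05, where edgeR called 0.0609% of all genes. Without replicate 1 of LN521, which held that group's highest OTX2, CRX, NEUROD1, and PRDM1, the differences of THRB (log2 0.68, adjusted p = 3.4e-04), NEUROD1 (log2 1.61, adjusted p = 2.4e-10), and PRDM1 (log2 0.81, adjusted p = 0.047) passed the test.

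OTX2 was lower on LN323 than on LN521 at day 32, with a log2 fold change of -1.18 ± 0.22 (adjusted p = 0.023), the 1 factor called of 8 where 0.117% of all genes were called. The other differences were -1.38 ± 0.33 for CRX, -0.65 ± 0.49 for NRL, 1.18 ± 0.49 for RXRG, 0.10 ± 0.24 for THRB, -1.07 ± 0.41 for NEUROD1, and -1.45 ± 0.41 for PRDM1. The OTX2 call was lost without any 1 of the LN323 replicates (-1.34 to -1.02), without replicate 2 (-1.25) or 3 (-1.07) of LN521, without the lane block (adjusted p = 0.780), with filterByExpr (adjusted p = 0.587), and with these 2 matrices fitted alone (adjusted p = 0.192). DESeq2, which called 2.02% of all genes, kept it and called CRX as well (adjusted p = 0.016). Without replicate 1 of LN521, CRX (log2 -1.10, adjusted p = 2.0e-04) and PRDM1 (log2 -1.02, adjusted p = 0.0011) passed, and without replicate 2 of LN521, CRX did (log2 -1.83, adjusted p = 0.048).

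**Figure D5:**
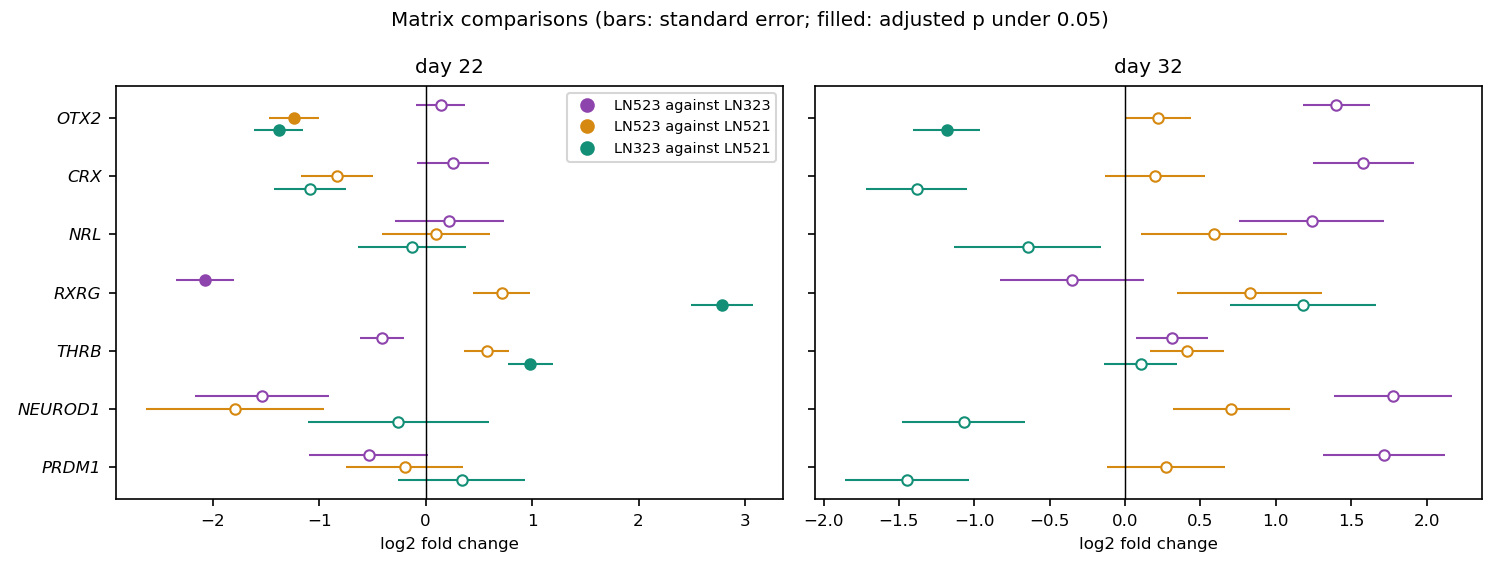
Log2 fold change between matrices (horizontal axis) for 7 of the factors at day 22 and day 32, with standard error bars; filled points have an adjusted p under 0.05. At day 22, RXRG, THRB, and OTX2 hold the filled points, and at day 32 the LN523 against LN323 differences of OTX2, CRX, NEUROD1, and PRDM1 lie at 1.40 to 1.78 but are unfilled.

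Genes that photoreceptors use downstream of these factors were counted next. Of 30 photoreceptor effector genes in the table, 3 rose on LN523 between days 22 and 32, 1 on LN521, and 0 on LN323. Of all tested genes, 0.343%, 0.196%, and 0.0357% rose on these matrices, so the 0 on LN323 lay near that share. With filterByExpr, 0 of 25682 genes were called on LN523, 5 on LN521, and 1 on LN323, so these LN523 calls were lost. The direct tests called 0 genes for LN523 against LN323, 1 for LN523 against LN521, and 0 for LN323 against LN521. RBP3, the retinoid carrier of the interphotoreceptor matrix, rose on LN523 from 0.799 ± 0.873 to 32.8 ± 24.5 CPM (SD, n = 3), with a log2 fold change of 5.38 ± 0.82 (adjusted p = 1.1e-04), and on LN521 with 6.07 ± 0.90. AIPL1, a chaperone of the phototransduction phosphodiesterase, rose on LN523 with 3.96 ± 0.86, and IMPG2, a proteoglycan of the same matrix, with 3.00 ± 0.59. RCVRN, the calcium sensor recoverin, was at 0.184 to 4.48 CPM on LN523 at day 32 and at 0.0957 to 0.224 CPM on LN323. These ranges overlapped, and RCVRN was not among the 3 genes called on LN523. For LN523 against LN323 at day 32, 0 of the 30 effector genes and 0% of all genes were called. Between days 22 and 32 on LN523, the median change of the 30 genes was 0.89, that of the 8 factors was 1.89, and that of all genes was 0.0023.

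Among 18 upstream and partner regulators, 6 rose on LN523 over the same days, 4 on LN521, and 0 on LN323. The shares of all genes given above for these days hold beside these counts and those of the Notch genes below. With filterByExpr, the LN523 calls of both lists were lost as well, since 0 of 25682 genes were called there. ATOH7, a factor of early retinal neurogenesis, rose with a log2 fold change of 4.96 ± 0.66 on LN523 and 5.88 ± 0.70 on LN521. On LN523, NEUROD4 rose with 4.58 ± 0.89, OLIG2 with 4.22 ± 0.85, and ONECUT1 with 4.15 ± 0.98. On LN521, OLIG2 rose with 4.21 ± 0.87, NEUROD4 with 3.49 ± 0.82, and RORB, an activator of photoreceptor development, with 2.24 ± 0.39. At day 22, ATOH7 was already higher on LN323 and LN523 than on LN521 (log2 2.96 ± 0.41 and 1.87 ± 0.40). These calls too were lost with filterByExpr, where 0 of 21535 genes were called. Of 13 Notch pathway genes, the ligand gene DLL4 and HES6 rose on LN523 (log2 3.98 ± 0.57 and 3.96 ± 0.50) and LN521 (log2 3.48 ± 0.56 and 1.98 ± 0.46), and the ligand gene DLL3 rose on LN523 (log2 2.37 ± 0.45), whereas 0 were called on LN323. The Notch target HES1 averaged 60.9 to 76.5 CPM over the 6 groups of days 22 and 32, and HES5 averaged 5.18 ± 2.79 CPM on LN523 at day 32 against 0.951 to 1.64 CPM in the other 5. Neither HES1 nor HES5 was called on LN523 between these days. At day 32, 0 of the 13 Notch genes were called for LN523 against LN323 or LN521, where 0% and 0.0609% of all genes were called.

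The genes most like each factor over the 18 libraries of days 22 and 32 were found by the root mean square difference of centred log2(CPM + 0.5) among 14416 genes. OTX2 was the second nearest gene to CRX, at 0.489, behind ELFN2 at 0.433 and ahead of TLCD3B at 0.525. For OTX2, the nearest were ENO2 (0.465), L1CAM (0.486), and PHF21B (0.487). NEUROD1 lay nearest to NEUROD4 (0.530), SYP (0.706), and HES6 (0.724), and PRDM1 to OLIG2 (0.531), NEUROD4 (0.592), and HES6 (0.603). THRB lay nearest to TRH (0.463), CERKL (0.476), and BHLHE22 (0.488), RXRG to CCDC3 (0.644), CHST2 (0.753), and CRB1 (0.780), and NRL to GDPD5 (0.270), MYBL1 (0.320), and NDRG4 (0.332). NR2E3 was too near 0 for its neighbours to carry weight. These are descriptions over libraries that share lanes and days.

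By GENCODE 44 on GRCh38, OTX2 (ENSG00000165588) lies at chr14:56799905-56816693, CRX (ENSG00000105392) at chr19:47819779-47843330, NRL (ENSG00000129535) at chr14:24078662-24115010, and NR2E3 (ENSG00000278570) at chr15:71792638-71818259. RXRG (ENSG00000143171) lies at chr1:165400922-165445355, THRB (ENSG00000151090) at chr3:24117153-24495756, NEUROD1 (ENSG00000162992) at chr2:181668295-181680827, and PRDM1 (ENSG00000057657) at chr6:105993463-106109939. NRL shares 6.3% of its exonic length with DCAF11 on the opposite strand, and NEUROD1 shares 2.9% with CERKL, the second gene nearest to THRB above, on its own strand. The strand setting of the counting is not given in the sources used here, so reads from the stretch shared by NRL and DCAF11 cannot be told apart.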

How the data were processed

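Total RNA of H1 cultures was sequenced by the authors in 27 libraries as 150 bp read pairs from stranded total RNA libraries. Per the submitters' processing notes, reads were aligned to hg38 with STAR 2.5.2b and gene counts made with featureCounts 1.5.1, and the authors deposited the counts without normalization, with ribosomal RNA and mitochondrial genes removed. The deposited TPM values were made by the authors from the same counts: the ratio of count to TPM, relative to each library, varied by over 1 percent in 0 of 13476 well-covered genes. Among non-zero counts, 68.8% were even, so both mates of a pair may have been counted. Counting intervals cover counting error only, take each count as independent, and are too narrow if both mates were counted. Replicates of a group differed by more than sampling noise, with a mean chi-square per gene of 10.5 to 153 over 27 pairs.

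Differential expression was tested with edgeR 4.0.16 (quasi-likelihood, TMM, genes with more than 1 count in sum) in R 4.3.3, with lane as a block, with Benjamini-Hochberg adjustment over all genes and a threshold of 0.05. Matrices were compared on the 9 libraries of a day, days on all 27 libraries, and the difference in change on 18. The standard error is the size of the log2 fold change divided by the square root of F. Alternatives were DESeq2 1.42.0, RLE normalization, filterByExpr, no lane block, the compared libraries alone, and each library left out. The fit was tested on simulated data with the same dispersion for every gene, no lane effect, and changes planted only in well-counted genes. That simulation cannot speak for calls that depend on the lane block or on low counts. Genes were named by GENCODE 44, which matched 43052 of 44852. Promoters came from RefSeq, with all 8 factors matched.

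The 8 factors and all gene lists were chosen with earlier results of these data known. Of each list, up to 4 called genes with the largest changes and at least 1 CPM in a group were named, besides RCVRN, RBP3, PAX6, MITF, HES5, and HES1. A further gene of this rule is not reported here.

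The lane block was part of the planned design. Deviations from the group mean correlated between libraries of the same lane at 0.692, 0.167, and 0.00823 on average at day 32 (LN523 with LN323, LN523 with LN521, LN323 with LN521), at 0.604, 0.186, and 0.128 at day 22, and at -0.372, 0.166, and -0.104 at day 2, so the lanes did not pair the libraries throughout.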

Additional observations from a re-analysis of the deposited data

Results flagged for a closer look

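OTX2 on LN523 against LN521 moved one way in every lane at day 22 and the other way in every lane at day 32, with log2 fold changes of -1.24 and 0.22. The difference between the days was 1.36 ± 0.49, with an unadjusted p of 0.0083 and an adjusted p of 0.940 in the edgeR fit over all genes. At day 32, lane 3 was at 25.2 CPM on LN523 and 24.9 CPM on LN521.

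NEUROD1 on LN523 against LN323 was lower in every lane at day 22 and higher in every lane at day 32, with log2 fold changes of -1.53 and 1.78. The difference between the days was 3.36 ± 1.06, with an unadjusted p of 0.0032 and an adjusted p of 1. At day 22, lane 1 was at 0.0463 CPM on LN523 and 0.0761 CPM on LN323.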

How the results depend on the processing

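Of the 8 factors, the number called moved most in these settings. At day 22, 1 call for LN523 against LN323 became 0 with DESeq2, filterByExpr, or no replicate block. At day 22, 1 call for LN523 against LN521 became 0 with filterByExpr, no replicate block, or the 2 matrices alone, and 3 calls for LN323 against LN521 became 0 with filterByExpr or no replicate block. At day 32, 0 calls for LN523 against LN323 became 4 with DESeq2 and 5 with the 2 matrices alone, and 1 call for LN323 against LN521 became 2 with DESeq2 and 0 with filterByExpr, no replicate block, or the 2 matrices alone. Between days 22 and 32, 3 calls on LN523 became 0 with filterByExpr and 5 with that matrix alone, 0 on LN323 became 2 with that matrix alone, and 3 on LN521 became 0 with filterByExpr. The cause was not tested. Other counts moved by 1 call. DESeq2 gave 4 in place of 3 for LN323 against LN521 at day 22, 2 in place of 3 between days 22 and 32 on LN523 and on LN521, and 5 in place of 6 between days 2 and 22 on LN523. RLE normalization gave 2 in place of 3 and 5 in place of 6 on LN523 between days 22 and 32 and between days 2 and 22. No replicate block gave 2 in place of 3 between days 22 and 32 on LN523 and on LN521 and 7 in place of 6 between days 2 and 22 on LN523. On LN523 between days 2 and 22, filterByExpr gave 5 in place of 6 and that matrix alone 7, and on LN323 that matrix alone gave 7 in place of 6. With each library left out, the counts for LN523 against LN323, LN523 against LN521, and LN323 against LN521 ranged over 0 to 2, 0 to 0, and 0 to 2 at day 2, over 0 to 2, 0 to 3, and 1 to 4 at day 22, and over 0 to 1, 0 to 3, and 0 to 3 at day 32. From day 22 to day 32, they ranged over 2 to 5 on LN523, 0 to 0 on LN323, and 0 to 3 on LN521.

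Differences that passed no test turned sign in a few settings. Without the replicate block, THRB on LN323 against LN521 at day 32 was -0.027 and RXRG on LN523 between days 22 and 32 was -0.013. NR2E3 was -0.45 for LN523 against LN521 at day 32 with the 2 matrices alone and -0.052 on LN323 between days 22 and 32 with DESeq2. With each library left out, the log2 fold changes at day 32 ranged for LN523 against LN323 from -1.07 to 0.67 (RXRG) and -1.72 to 3.31 (NR2E3). For LN523 against LN521, they ranged from -0.29 to 0.54 (CRX), -0.063 to 1.66 (RXRG), -0.012 to 0.68 (THRB), -0.25 to 0.81 (PRDM1), and -2.10 to 2.57 (NR2E3). For LN323 against LN521, they ranged from -0.32 to 0.37 (THRB) and -2.07 to 0.47 (NR2E3). Between days 22 and 32, they ranged on LN323 from -0.080 to 0.66 (OTX2), -0.29 to 0.35 (NRL), and -0.67 to 1.49 (NR2E3), and on LN521 from -0.045 to 0.43 (OTX2), -0.040 to 0.71 (NRL), -0.24 to 1.05 (RXRG), and -1.49 to 0.80 (NR2E3). NR2E3 after day 2 had 4 to 18 counts per group, and its changes are limited by depth.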

Other observations

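MITF, a pigment cell regulator, passed no test between days 22 and 32 on any matrix. It averaged 56.6 ± 10.2 CPM on LN523 at day 22 (SD, n = 3) and 58.4 ± 13.7 CPM at day 32. Of 7 retinal progenitor markers, 0 were called by edgeR between these days on any matrix.

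Some markers of other retinal neurons also rose on LN523 between days 22 and 32. Of all tested genes, 0.343% rose on LN523 and 0.196% on LN521. With filterByExpr, 0 of 25682 genes were called on LN523, so none of the LN523 calls below passed, and 5 were called on LN521. Of 8 bipolar cell markers, VSX1 (log2 4.03 ± 0.85) and PRDM8 (log2 4.30 ± 0.79) rose, and their summed level at day 32 was 19.9 to 33.4 CPM. Of 7 retinal ganglion cell markers, POU4F2 rose on LN523 (log2 5.44 ± 0.89) and LN521 (log2 4.11 ± 0.85). Of 9 horizontal and amacrine cell markers, CALB2 rose on LN523 (log2 3.77 ± 0.76), but the median change of the 9 was 0.127. Their summed level on LN523 was 60.7 to 117 CPM at day 22 and 67.7 to 110 CPM at day 32. It was higher at day 32 in lane 1 and lower in lanes 2 and 3. Of 5 pineal markers, 0 were called, and 2 of them were at 0 in all LN523 libraries of day 32. Bipolar and pineal cells also express OTX2 and CRX, and their part in those levels was not tested.

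Non-retinal markers were present too. Of 8 lens markers, 3 rose on LN323 and 2 on LN523, with CRYBB1 at log2 4.37 ± 0.71 and 3.89 ± 0.71. Of all tested genes, 0.0357% and 0.343% rose on these 2 matrices. With filterByExpr, 1 gene was called on LN323, 0 on LN523, and 5 on LN521. Among 7 surface ectoderm and keratinocyte markers, KRT17 rose on LN523, LN323, and LN521 (log2 2.90 ± 0.37, 3.55 ± 0.38, and 5.49 ± 0.42). The summed level of the 7 fell in lane 1 from 409 to 166 CPM on LN523 and from 381 to 317 CPM on LN323. It rose in lanes 2 and 3 of both and in every lane of LN521. Of 5 forebrain and 4 neural crest markers, 0 were called between these days.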
